A study of Mus musculus with 21 samples.

Results

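The 9 genes described here encode the sensors of the unfolded protein response and the proteins that process their signals. They were taken by gene name from the deposited gene count table, in which all 9 were found among 45706 genes: Ern1, Xbp1, Eif2ak3, Atf6, Atf6b, Rtcb, Mbtps1, Mbtps2 and Traf2. RNA-seq was done on Myc-CaP, a mouse prostate cancer cell line that arose in an FVB mouse carrying a human MYC transgene under a probasin promoter, and on tumours grown from these cells in FVB mice. The cells were either wild type (WT) or had Ern1, which encodes IRE1α, knocked out (KO) with CRISPR Cas9 and 1 guide, in 3 lines labelled KO1, KO2 and KO3. All groups therefore share the MYC transgene, and no treatment is given for any of them in the labels. There were 2 libraries each of WT, KO1, KO2 and KO3 cells, 4 libraries of WT tumours and 3 each of KO1, KO2 and KO3 tumours, 21 in all. WT was 1 line, so the spread between WT lines was not measured, and the labels do not say whether a KO line is a clone. Tumour libraries also hold RNA of host cells, in which Ern1 was not targeted. The ages and the number of the mice are not given in the labels. WT tumours 3 and 4 share a number in their descriptions, followed by L and R, so they may come from 1 mouse. They were treated as separate replicates.

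The unfolded protein response is started in the membrane of the endoplasmic reticulum (ER) when unfolded proteins accumulate, and it has 3 branches. IRE1α, encoded by Ern1, is a kinase and RNase that cuts a short intron out of Xbp1 mRNA in the cytoplasm; the RNA ligase RTCB joins the ends, and the frame shift lets the mRNA encode the transcription factor XBP1s, while the adaptor TRAF2 links IRE1α to JNK signalling. PERK, encoded by Eif2ak3, phosphorylates the translation factor eIF2α, which lowers protein synthesis. ATF6 and its relative ATF6B travel to the Golgi, where the site-1 protease (Mbtps1) and then the site-2 protease (Mbtps2) release their transcription factor domains. Secretory cells such as those of the prostate depend on this response for protein folding.

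The sequence aimed at and the sequence that IRE1α acts on are shown because every comparison starts from them. The guide given in the labels lies in coding exon 2 of Ern1 (ENSMUSG00000020715) at chr11:106458942-106458961 on the minus strand of GRCm38, where it covers coding bases 128 to 147 from codon 43 on. In the first line, 94 bases of that exon at chr11:106458908-106459001 are written 5′ to 3′ with the guide and the 3 bases AGG that follow it in capitals. The second line shows 106 bases of exon 4 of Xbp1 (ENSMUSG00000020484) at chr11:5524239-5524344 on the plus strand, with the 26-base intron in capitals.
Ern1 exon 2: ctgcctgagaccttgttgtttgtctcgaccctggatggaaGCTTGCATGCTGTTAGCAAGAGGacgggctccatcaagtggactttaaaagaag
Xbp1 exon 4: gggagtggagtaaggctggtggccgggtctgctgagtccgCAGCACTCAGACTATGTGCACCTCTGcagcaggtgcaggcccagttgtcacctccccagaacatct
The guide site was in all 5 Ern1 transcripts of GENCODE M21. The Xbp1 intron lies at chr11:5524279-5524304 and begins and ends within the motifs CCGCAGC and CTGCAGC, both of the form CNGCNGN that IRE1α cuts. Its removal extends the reading frame from 267 to 371 codons. A second pair of such motifs at the same spacing was found in exon 1, where removal would leave 73 codons. Of the 4 annotated Xbp1 transcripts, 3 held the intron and 0 held the spliced junction. The gene counts therefore do not separate spliced from unspliced Xbp1 mRNA and do not measure splicing. Whether reads across the spliced junction were counted was not tested. Nor does a gene count show the sequence at the guide, so the Ern1 level is no check of the KO labels.

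The depth was 18105538 to 25068254 counts a library for cells and 15994285 to 27497796 for tumours. Of 12 prostate epithelial markers, 8 to 10 were detected in a group, and they summed to 2559 to 2762 CPM (the counts scaled to a common library size) in cells and 1024 to 1464 in tumours, while Epcam was at 0 in every cell library. In cells the 22 leukocyte markers summed to 8.09 to 11.2 CPM, with Ptprc at 0 in WT, KO1 and KO2 cells and at 0.02 in KO3 cells. In tumours the same sum was 275 to 1060 in WT, 588 to 832 in KO1, 361 to 542 in KO2 and 471 to 633 in KO3. The 16 vessel and fibroblast markers summed to 720 to 2951 CPM in WT tumours, 2439 to 3412 in KO1, 984 to 1353 in KO2 and 1050 to 2026 in KO3. The 14 skeletal muscle markers summed to 13.9 to 5450 CPM in WT tumours, 502 to 1297 in KO1, 37.6 to 1042 in KO2 and 9.10 to 22.3 in KO3. The 6 erythroid markers summed to 40.7 to 203 CPM in cells and 72.8 to 1222 in tumours, and the 7 secretory and plasma cell markers to 49.4 to 83.4 and 44.6 to 71.0. WT tumour 1 had the highest leukocyte and muscle sums. In WT tumour 4 the single gene Yam1 held 24.0047% of the counts, far above its 6.16% to 8.47% in the other tumours. In bulk RNA, fewer cells of a type and less RNA per cell cannot be told apart.

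Levels are given as CPM after TMM scaling of the 21 libraries together, which corrects for RNA composition where most genes do not differ. Between tumours and cells 59.8% of genes in WT and 75.5% in KO had an edgeR adjusted p under 0.05. Levels compared across these settings rest on that scaling. Compared between genes per kilobase of merged exons, the members of WT cells were ordered Rtcb (95.3 ± 0.444 CPM per kb, SD, n = 2), Atf6b (53.4 ± 1.33), Mbtps1 (47.2 ± 0.672), Xbp1 (34.9 ± 1.21), Ern1 (15.5 ± 1.07), Atf6 (7.34 ± 0.0368), Eif2ak3 (5.89 ± 0.244), Mbtps2 (5.57 ± 0.601) and Traf2 (3.27 ± 0.153). The RNA ligase was thus the highest on this scale, and Eif2ak3 and Mbtps2 lay within their spread of each other. Per kilobase of the longest coding transcript instead, Mbtps1 was the second and Atf6b the third, and Mbtps2 stood above Atf6 and Eif2ak3. In KO1 and KO2 cells Ern1 stood above Xbp1 on the merged-exon scale, at 22.2 ± 1.89 against 16.6 ± 0.0211 CPM per kb in KO1 cells (SD, n = 2) and at 24.3 ± 0.370 against 21.7 ± 2.12 in KO2 cells. In KO2 cells the order of these 2 genes turned with the longest coding transcript, where Xbp1 was at 33.1 and Ern1 at 28.5 CPM per kb.

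**Figure D1:**
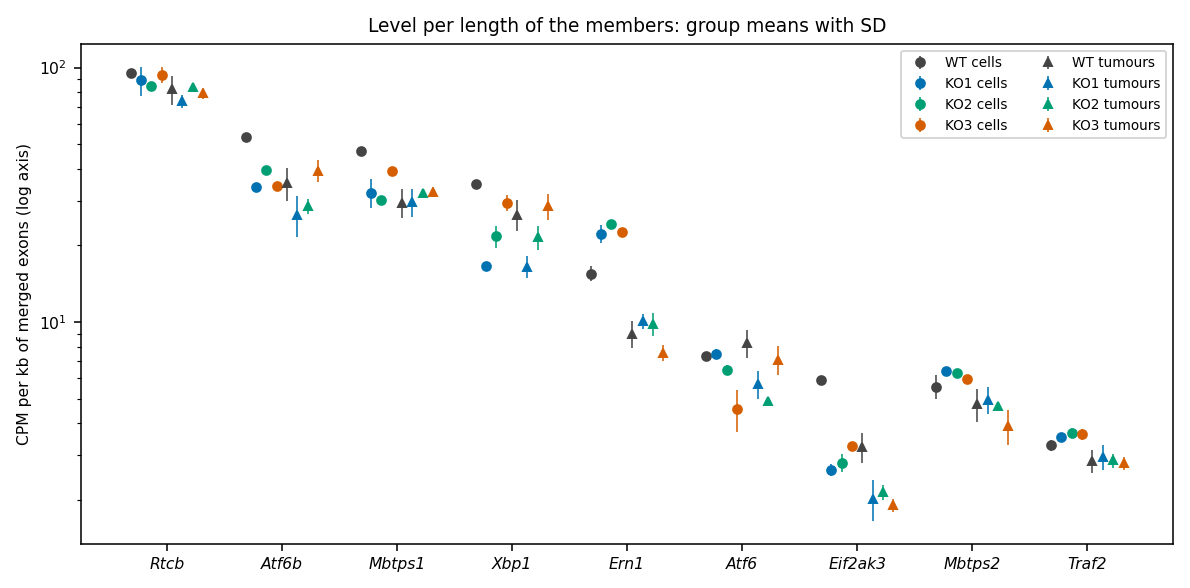
Level of each member in CPM per kb of merged exons (log axis) in the 8 groups; circles are cells, triangles tumours, colours the lines, and bars the SD over libraries. Rtcb was the highest member in each group, and Eif2ak3 fell from 5.89 in WT cells to 2.61 in KO1 cells.

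KO was compared with WT over the libraries of the 3 lines together, and a gene was called at an adjusted p under 0.05 in edgeR's quasi-likelihood test with Benjamini-Hochberg adjustment over all genes tested. All 9 members passed the filter on low counts in every comparison. In cells 4 of 9 members were called, against 14.8% of the 12254 genes tested: Ern1 rose (4.99% of genes were called higher), and Eif2ak3, Atf6b and Mbtps1 fell (9.76% were called lower). In tumours 1 of 9, Eif2ak3, was called, lower, against 3.69% of 14200 genes called in either direction and 2.39% called lower. The median log2 fold change of the 9 members was -0.26 in cells and -0.07 in tumours, beside medians of 0.02 and 0.00 over all genes tested. With libraries summed per line, which leaves 3 KO lines against 1 WT line, no member was called in either setting by edgeR. Of the members, 4 were then at an unadjusted p under 0.05 in cells and 1 in tumours, and of all genes 38 were called in cells and 0 in tumours.

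**Figure D2:**
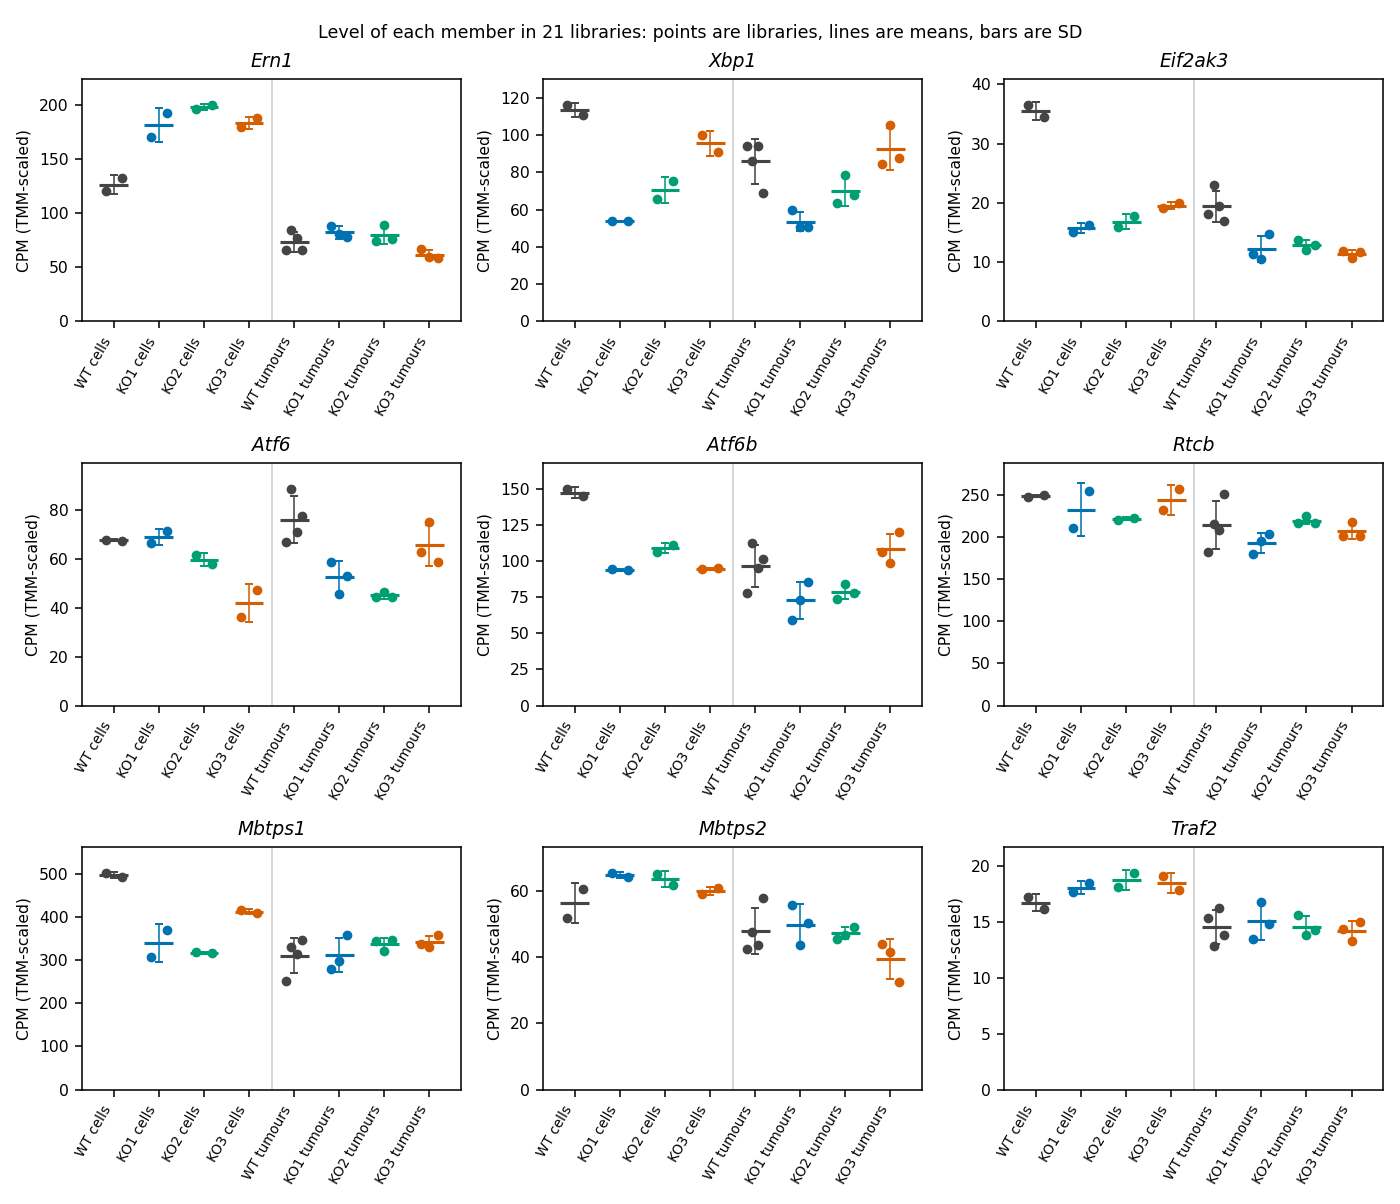
CPM of each member in the 21 libraries, by group; points are libraries, horizontal lines group means and bars the SD. The 9 KO tumours had 10.5 to 14.7 CPM of Eif2ak3, all below the 4 WT tumours at 17.0 to 23.02, and all 6 KO cell libraries lay above both WT cell libraries for Ern1. Of all genes tested, 2.15% in tumours and 17.7% in cells showed these separations.

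Ern1, the targeted gene, remained transcribed in every KO library and was higher in KO than in WT cells. It measured 121 and 133 CPM in WT cells, 171 and 193 in KO1 cells, 196 and 200 in KO2 cells and 180 and 188 in KO3 cells. All 6 KO libraries lay above both WT libraries, as did 17.7% of all genes tested. The log2 fold change in cells was 0.56 ± 0.09 (SE, edgeR adjusted p = 0.00341), and without WT cell library 1 it was 0.47 with an edgeR adjusted p of 0.0882. In tumours Ern1 measured 66.0, 84.5, 77.4 and 66.5 CPM in WT, 88.8, 80.5 and 77.8 in KO1, 74.4, 89.4 and 76.6 in KO2 and 66.7, 59.5 and 59.1 in KO3. The WT range held most of the KO1 and KO2 values, and 2 KO3 tumours lay below it. The pooled log2 fold change in tumours was 0.03 ± 0.12 (SE), with a 95% interval from -0.24 to 0.30 (edgeR adjusted p = 0.914). KO against WT Ern1 levels in tumours turned to -0.10 without WT tumours 1 and 4 and to -0.05 in the length-scaled table.

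The ratio of the plain to the length-scaled count of a gene follows the mean length of the transcripts assigned to it. For Ern1 in tumours the log2 of this ratio, centred on the median gene of each library, had means of -0.01 in WT and 0.08 in KO, a difference of 0.09. The exact two-sided permutation p over libraries was 0.0014, the smallest that 4 against 9 libraries can give, with an adjusted p of 0.0252 over 18 tests by the exact permutation test. This test took single libraries as units although several came from the same line, and it was not run over lines. It was run on the 9 members only, so the share of all genes with such a p is not known. In cells the corresponding Ern1 difference was -0.01 (exact permutation p = 0.893, smallest possible 0.0357), and the difference between tumours and cells was not tested. Centred on genes with 1000 counts or more, no member was called in this measure, and leaving out single libraries gave 0 or 1 calls.

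Xbp1, whose mRNA IRE1α splices, was lowest in KO1 and closest to WT in KO3, in cells and in tumours. In cells it measured 116 and 111 CPM in WT, 54.1 and 54.0 in KO1, 65.5 and 75.3 in KO2 and 100.2 and 90.7 in KO3. All 6 KO cell libraries lay below both WT libraries, as did 17.5% of all genes tested. The pooled log2 fold change was -0.64 ± 0.21 (SE) and missed the threshold (edgeR adjusted p = 0.0668); without KO3 it was -0.87 (edgeR adjusted p = 0.000433), and DESeq2 gave an adjusted p of 0.0252. With lines as groups, where the spread within lines sets the error, edgeR gave it an adjusted p of 5.67e-06. It also passed without KO3 cell library 1 (edgeR adjusted p = 0.0225) and without KO3 cell library 2 (0.0398). Line by line, the log2 fold change of Xbp1 was -1.07 ± 0.08 in KO1 cells, -0.68 ± 0.08 in KO2 cells and -0.28 ± 0.08 in KO3 cells (SE; edgeR adjusted p for KO3 = 0.0211). The KO3 call was lost without KO3 cell library 2 or either WT library (edgeR adjusted p from 0.0902 to 0.180). The 3 lines differed from each other in cells (F test over lines in edgeR, adjusted p = 7.06e-05). The erythroid marker sum had the same order in cells, at 170 to 203 CPM in WT, 40.7 to 54.7 in KO1, 57.7 to 57.9 in KO2 and 135 to 162 in KO3. Its counts came from Hba-a1 and Hba-a2 in WT and KO3 cells, while Hbb-bs, Hbb-bt and Alas2 were at 0 in all cell libraries. The part of these markers in the Xbp1 difference was not tested.

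In tumours Xbp1 measured 94.3, 85.9, 94.3 and 68.8 CPM in WT, 59.7, 50.6 and 50.5 in KO1, 63.5, 78.4 and 67.8 in KO2 and 84.7, 105.5 and 87.9 in KO3. All KO1 tumours lay below all WT tumours, as they did for 12.2% of the genes tested, while KO2 and KO3 overlapped WT. Xbp1 fell by 0.68 ± 0.14 on the log2 scale in KO1 tumours (SE, edgeR adjusted p = 0.00966), and the pooled value of -0.25 ± 0.18 did not pass (95% interval from -0.63 to 0.13). The KO1 call was lost without KO1 tumour 2 (edgeR adjusted p = 0.0514) or KO1 tumour 3 (0.0502). The lines also differed in tumours (edgeR F test, adjusted p = 0.0287), a call lost without any 1 of 6 KO libraries, namely KO1 tumours 2 and 3, KO2 tumours 1 and 3 and KO3 tumours 2 and 3 (edgeR adjusted p from 0.0543 to 0.129). By mean level the 8 groups ran from WT cells (113) through KO3 cells (95.5), KO3 tumours (92.7), WT tumours (85.8), KO2 cells (70.4) and KO2 tumours (69.9) to KO1 cells (54.1) and KO1 tumours (53.6 CPM). Neighbours in that order overlapped except WT cells with KO3 cells and KO2 tumours with KO1 cells.

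Rtcb, the ligase that joins the cut Xbp1 mRNA, and Traf2, the adaptor to JNK, passed in no comparison of KO with WT. Rtcb measured 248 and 250 CPM in WT cells and 211 to 257 in the 6 KO cell libraries (median 228), and 183, 215, 209 and 251 in WT tumours against 180 to 225 in KO tumours (median 203). Its KO values lay on both sides of WT in cells and within or just below the WT range in tumours. The log2 fold change of Rtcb was -0.11 in cells (95% interval from -0.30 to 0.09) and -0.05 in tumours (from -0.24 to 0.14). Traf2 measured 17.2 and 16.1 CPM in WT cells and 17.6 to 19.3 in KO cells (median 18.3). All 6 KO libraries thus lay above WT by a small margin, as they did for 17.7% of all genes tested. In tumours Traf2 was at 15.3, 12.8, 16.2 and 13.8 CPM in WT and 13.3 to 16.8 in KO (median 14.3), which overlapped throughout. Its log2 fold change was 0.13 in cells (95% interval from -0.05 to 0.31), and in tumours it was 0.01 (from -0.19 to 0.21).

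Eif2ak3, which encodes PERK, was the member with the lowest pooled fold change in both settings, and it was called in both and in each line. In single lines, Atf6 was lower in KO2 tumours and Xbp1 marginally lower in KO1 tumours. WT cells had 36.6 and 34.5 CPM, against 15.2 and 16.3 in KO1 cells, 15.9 and 17.8 in KO2 cells and 19.1 and 19.95 in KO3 cells. KO cells thus held 48.9% of the WT mean. No KO cell library reached a WT library, a separation that 17.5% of all genes tested showed. For cells the log2 fold change was -1.04 ± 0.10 (SE, edgeR adjusted p = 0.000169), at rank 91 of 12254 genes by p. WT tumours had 18.1, 23.02, 19.5 and 17.0 CPM, against 11.3, 10.5 and 14.7 in KO1, 13.7, 12.02 and 12.9 in KO2 and 11.9, 10.7 and 11.8 in KO3 tumours. All 9 KO tumours lay below all 4 WT tumours, a separation that 2.15% of the genes tested showed. In tumours the log2 fold change was -0.67 ± 0.11 (SE, edgeR adjusted p = 0.00661), at rank 53 of 14200.

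The Eif2ak3 difference in tumours was -0.67 with a leukocyte covariate and -0.67 with a skeletal muscle covariate (edgeR adjusted p = 0.00709 and 0.00775), and -0.79 without WT tumours 1 and 4 (edgeR adjusted p = 0.0241). With the line as a random block in limma voom the adjusted p was 0.000690 in cells and 0.0332 in tumours. With libraries summed per line the edgeR adjusted p was 0.0973 in cells and 0.662 in tumours, at log2 fold changes of -1.04 and -0.67. Line by line the log2 fold change of Eif2ak3 in cells was -1.17 ± 0.09 in KO1, -1.07 ± 0.09 in KO2 and -0.90 ± 0.09 in KO3 (SE). In tumours it was -0.67 ± 0.15 in KO1, -0.60 ± 0.14 in KO2 and -0.77 ± 0.15 in KO3 (edgeR adjusted p = 0.0131, 0.0452 and 0.0229). Within 1 line these tumour calls were fragile: the KO1 call was lost without KO1 tumour 2 (edgeR adjusted p = 0.0646). The KO2 call was lost without any KO2 tumour, WT tumour 2 or WT tumour 3 (edgeR adjusted p from 0.0827 to 0.180), and the KO3 call without any KO3 tumour, WT tumour 2 or WT tumour 3 (from 0.0530 to 0.140). No difference among the lines was called for Eif2ak3 (edgeR adjusted p = 0.0801 in cells and 0.766 in tumours).

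Atf6 and Atf6b encode the sensors that are cut in the Golgi, and both differed among the KO lines in cells. Atf6 measured 68.0 and 67.5 CPM in WT cells, 66.8 and 71.5 in KO1 cells, 61.6 and 58.0 in KO2 cells and 36.4 and 47.4 in KO3 cells. KO1 cells straddled the WT values, and KO3 cells lay below every other cell library. Atf6 fell by 0.73 ± 0.11 on the log2 scale in KO3 cells (SE, edgeR adjusted p = 0.000726), and was at 0.03 in KO1 and -0.18 in KO2 cells, which did not pass. The lines differed in cells (edgeR F test, adjusted p = 0.000986). In tumours Atf6 measured 67.1, 88.8, 71.1 and 77.8 CPM in WT, 59.0, 45.7 and 53.2 in KO1, 44.3, 46.7 and 44.4 in KO2 and 63.1, 75.1 and 58.7 in KO3. Here KO1 and KO2 lay below all WT tumours, as did KO1 tumours for 12.2% and KO2 tumours for 9.08% of the genes tested, and KO3 overlapped WT.

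The log2 fold change of Atf6 was -0.53 ± 0.13 in KO1 tumours and -0.76 ± 0.13 in KO2 tumours (SE, edgeR adjusted p = 0.0201 and 0.00613), and in KO3 tumours its value was -0.22 with an edgeR adjusted p of 0.467. The KO1 call was lost without KO1 tumour 2, KO1 tumour 3 or WT tumour 2 (edgeR adjusted p from 0.0548 to 0.102), and the KO2 call without KO2 tumour 1 (0.0582). The pooled value in tumours was -0.48 ± 0.14 (edgeR adjusted p = 0.0670). It passed without KO3 tumour 2 (-0.56, edgeR adjusted p = 0.0257), without KO3 (-0.65, 0.00565) and with a skeletal muscle covariate (-0.45, 0.0383), as it did with DESeq2 (adjusted p = 0.0218). Among the KO tumours, muscle marker sums were lowest in KO3 (9.10 to 22.3 CPM), the line with the highest Atf6. WT tumours 1 to 4 had sums of 5450, 14.4, 92.2 and 13.9 CPM. Apart from the covariate, the part of muscle RNA in the Atf6 differences was not tested. The difference among lines in tumours was not called by edgeR (adjusted p = 0.0926) and was called by DESeq2 (0.0129) and without WT tumour 1 (edgeR adjusted p = 0.0492).

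Atf6b measured 150 and 145 CPM in WT cells, 94.2 and 93.6 in KO1 cells, 106 and 111 in KO2 cells and 94.6 and 94.99 in KO3 cells. All KO libraries lay below WT, as they did for 17.5% of all genes tested. The pooled log2 fold change was -0.58 ± 0.09 (SE, edgeR adjusted p = 0.00253). By line it was -0.65 in KO1, -0.43 in KO2 and -0.67 in KO3, and the lines differed by the edgeR F test (adjusted p = 0.0235). That difference was lost without KO2 cell library 2 or any KO3 or WT cell library (edgeR adjusted p from 0.0635 to 0.0848). In the length-scaled table the pooled value was -0.85, and the ratio of the tables differed by 0.28 on the log2 scale between KO and WT cells (exact permutation p = 0.0357, the smallest that 28 splits can give; adjusted p = 0.321). The share of all genes with such a difference in this ratio was not determined. In tumours Atf6b measured 77.8, 113, 95.1 and 101.2 CPM in WT, 59.5, 73.4 and 85.6 in KO1, 73.8, 84.1 and 78.2 in KO2 and 106, 99.0 and 120 in KO3. KO3 tumours lay within or above the WT range, and 3 of the other 6 KO tumours below it. The pooled tumour value was -0.15 ± 0.16 (95% interval from -0.49 to 0.18), and no line passed. KO1 tumours passed without WT tumour 1, at -0.50 (edgeR adjusted p = 0.0249).

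Mbtps1, the site-1 protease that makes the first cut in ATF6, was lower in KO than in WT cells. It measured 502 and 492 CPM in WT cells, 308 and 370 in KO1, 318 and 317 in KO2 and 416 and 408 in KO3 cells. KO3 lay between WT and the other 2 lines. All 6 KO libraries lay below both WT libraries, as did 17.5% of all genes tested. The pooled log2 fold change was -0.49 ± 0.12 (SE, edgeR adjusted p = 0.0227). The call was lost without WT cell library 1 (edgeR adjusted p = 0.185) or 2 (0.171), without KO1 (0.0646) or KO2 (0.0665), and with the line as a random block (limma voom adjusted p = 0.0906). By line the log2 fold change was -0.55 in KO1, -0.64 in KO2 and -0.30 in KO3 cells. The KO3 call was lost without any 1 of the 4 KO3 and WT libraries (edgeR adjusted p from 0.0875 to 0.118). The lines differed in cells (edgeR F test, adjusted p = 0.0199), but not without KO3 cell library 1 (0.110) or 2 (0.114). In tumours Mbtps1 measured 252, 331, 314 and 346 CPM in WT, 280, 298 and 357 in KO1, 345, 321 and 347 in KO2 and 338, 330 and 358 in KO3. These ranges overlapped, and the pooled value was 0.09 ± 0.10 (95% interval from -0.11 to 0.30).

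Mbtps2, the site-2 protease that makes the second cut, passed in neither setting. It measured 52.0 and 60.6 CPM in WT cells and 59.2 to 65.4 in KO cells (median 63.1), and 42.4, 47.7, 43.8 and 57.8 in WT tumours against 32.5 to 55.8 in KO tumours (median 45.6). WT and KO overlapped in both settings, with 5 of 6 KO cell libraries above both WT libraries. The log2 fold change was 0.15 in cells (95% interval from -0.06 to 0.35) and -0.07 in tumours (from -0.34 to 0.20). Without WT cell library 2, Mbtps2 was called higher in KO1 cells (0.33, edgeR adjusted p = 0.0340) and in KO2 cells (0.31, 0.0480). Yy2, which reached at most 5.05 CPM, overlaps Mbtps2 on the same strand, so reads of the overlap cannot be assigned with certainty.

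Counted by line, 5 members were called in KO1 cells (38.2% of all genes tested, 17.7% higher and 20.5% lower), 5 in KO2 cells (37.7%, 17.4% and 20.2%) and 6 in KO3 cells (24.4%, 10.4% and 14.1%). In each line Ern1 was the 1 member called higher in cells. In tumours 3 were called in KO1 (10.6% of all genes, 6.86% lower), 2 in KO2 (3.04%, 2.15%) and 1 in KO3 (1.24%, 0.69%), all lower. The lines share the WT libraries of their setting, so these counts are not independent. Among the KO lines 4 members differed in cells (Xbp1, Atf6, Atf6b and Mbtps1), against 30.3% of all genes, and 1 in tumours (Xbp1), against 2.95%. Leaving out single libraries gave 0 to 4 calls in KO1 tumours, 0 to 2 in KO2 tumours and 0 to 1 in KO3 tumours.

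**Figure D3:**
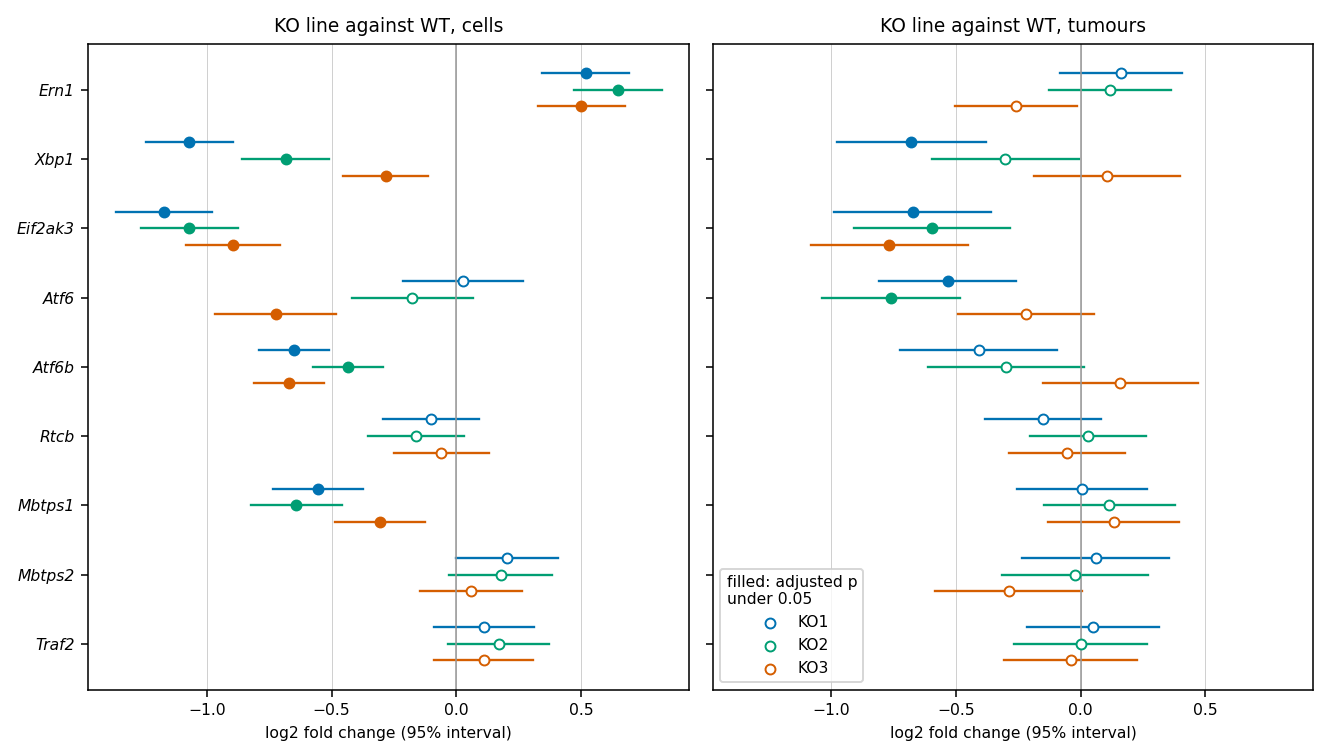
Log2 fold change of each member in each KO line against WT, in cells and in tumours, from edgeR; bars are 95% intervals and filled points have an adjusted p under 0.05. Eif2ak3 lay below 0 in all 3 lines in both settings (-0.60 to -1.17), while Xbp1 ran from -1.07 in KO1 cells to 0.10 in KO3 tumours.

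Whether the effect of the KO differed between tumours and cells was tested as an interaction over all libraries. The test called 1 member, Mbtps1, against 0.962% of 15173 genes: its KO effect was 0.61 ± 0.15 higher in tumours than in cells on the log2 scale (SE, edgeR adjusted p = 0.0463). The call was lost with RLE scaling (edgeR adjusted p = 0.0587), without the filter on low counts (0.217) and with WT tumours 1 and 4 left out (0.188). It was also lost on leaving out any 1 of 16 of the 21 libraries (edgeR adjusted p from 0.0545 to 0.311), among them both WT cell libraries and WT tumours 1, 2 and 3. The Ern1 interaction was -0.51 ± 0.18 (edgeR adjusted p = 0.222) and that of Eif2ak3 0.39 ± 0.16 (0.353). Line by line, a contrast added after the data were seen, Mbtps1 passed in KO1 (0.62, edgeR adjusted p = 0.0352, 3.76% of genes called) and KO2 (0.75, 0.0118, 3.26%). In KO3, where 2.06% of genes were called, Ern1 (-0.73, edgeR adjusted p = 0.0191) and Atf6b (0.86, 0.0225) passed. These calls were also lost without single libraries. They are KO1 cell library 1, KO1 tumour 3, WT tumour 3 or either WT cell library for Mbtps1 in KO1 (edgeR adjusted p from 0.0572 to 0.250), any KO2 or WT cell library for Mbtps1 in KO2 (0.0530 to 0.0831) and any KO3 or WT cell library for Ern1 (0.0526 to 0.174). For Atf6b they are any KO3 or WT cell library or KO3 tumour 3 (0.0618 to 0.126). Ern1 in KO2 (-0.54, edgeR adjusted p = 0.0809) passed without KO2 tumour 2 or WT tumour 4 (0.0361 and 0.0400). Atf6 did not pass in any line, at -0.51 in KO1, -0.59 in KO2 and 0.53 in KO3 (edgeR adjusted p = 0.174, 0.115 and 0.206).

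Between tumours and cells of the same genotype, the members that were called were all lower in tumours. In WT 5 of 9 were called, against 59.8% of all genes and 24.8% called lower, at log2 fold changes of -0.85 for Eif2ak3, -0.77 for Ern1, -0.66 for Mbtps1, -0.59 for Atf6b and -0.38 for Xbp1. The Xbp1 call was lost without WT cell library 1 or 2 or WT tumour 4 (edgeR adjusted p from 0.0598 to 0.117). Without WT tumour 4, Mbtps2 (-0.30, edgeR adjusted p = 0.0417) and Rtcb (-0.27, 0.0174) were called too. In KO 4 of 9 were called, against 75.5% of all genes and 31.4% called lower, at -1.29 for Ern1, -0.46 for Eif2ak3, -0.42 for Mbtps2 and -0.29 for Traf2. Xbp1 and Atf6 in KO lay at 0.03 and -0.0023, with 95% intervals from -0.15 to 0.21 and from -0.17 to 0.17. The median over all genes was 0.16 in WT and 0.17 in KO, beside -0.38 and -0.16 over the 9 members. In KO, Atf6b was also called without KO1 tumour 3 or KO3 tumour 3, and Rtcb without KO1 cell library 1 or KO3 cell library 1 (edgeR adjusted p from 0.0190 to 0.0448). Leukocyte, vessel, fibroblast and muscle markers were higher in the tumours, as the sums above show, and their part in these differences was not tested.

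Other genes of the 3 branches were counted in 6 lists of genes that act with the members. Of 15 tested genes of IRE1 RNA splicing and ligation, 5 fell and 0 rose in KO cells, and 2 fell in KO tumours, beside 9.76% of all genes called lower and 4.99% higher in cells and 2.39% lower in tumours. Those that fell included Sec61a1, the channel of the ER translocon (-1.39 ± 0.07, SE, edgeR adjusted p = 3.11e-06 in cells and -0.85 ± 0.20, 0.0319 in tumours), Sec63, a translocon partner (-0.70 in cells), and Fam98a, a subunit of the ligase complex (-0.35 in cells, lost without either WT library and with the line as a random block, limma voom adjusted p = 0.170). Rtca, an RNA cyclase, fell by 0.55 on the log2 scale in tumours, a call lost without WT tumour 2, 3 or 4. With the line as a random block in limma voom this list had 2 lower in cells. In tumours all 6 calls of the 6 lists were lost with that block (limma voom adjusted p from 0.0780 to 0.168), as they were with the replicate block (edgeR adjusted p from 0.113 to 0.153). Leaving out single libraries gave 2 to 7 calls of this list in cells and 0 to 3 in tumours, where the Sec61a1 call was lost without any of 8 libraries (edgeR adjusted p from 0.0527 to 0.111). Of 21 IRE1 regulators, 8 fell and 0 rose in cells (7 and 0 with the line as a random block, beside 9.76% and 4.99% of all genes), among them the ER chaperone Hspa5 (-1.31 ± 0.10), the disulfide isomerase P4hb (-1.46 ± 0.11) and the UFMylation ligase Ufl1 (-1.08 ± 0.09). In tumours 1 of 22, the ER membrane protein Tmbim6, fell (-0.42, edgeR adjusted p = 0.0402), beside 2.39% of all genes called lower. That call was lost without any of 10 of the 13 libraries, with the replicate block (edgeR adjusted p = 0.118) and with the line as a random block (limma voom adjusted p = 0.164). Without KO3 the count in tumours was 6.

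Of 19 tested genes of ATF6 trafficking and its partners, 11 fell and 1, Nfyb, rose in KO cells, beside 9.76% of all genes called lower and 4.99% higher. With the line as a random block 8 were lower and 0 higher. Log2 fold changes were -2.35 ± 0.09 for the COPII coat subunit Sec24d, -1.73 ± 0.19 for the disulfide isomerase Pdia5 and -0.60 ± 0.07 for the COPII GTPase Sar1a. In tumours Sec24d was the 1 gene of this list that passed (-1.36 ± 0.35, edgeR adjusted p = 0.0465), beside 2.39% of all genes called lower. That call was lost without any of 10 of the 13 libraries, with the replicate block (edgeR adjusted p = 0.153) and with the line as a random block (limma voom adjusted p = 0.0780). Nfyb, a subunit of the NF-Y factor that binds ER stress elements with ATF6, was at 0.45 ± 0.12 in cells (edgeR adjusted p = 0.0323), a call lost without KO1 cell library 2, KO2 cell library 1 or either WT library, with the replicate block (0.0524) and with the line as a random block (limma voom adjusted p = 0.170). Leaving out single libraries gave 5 to 12 calls of this list in cells and 0 to 2 in tumours. A further list held other substrates of the site-1 and site-2 proteases, partners of these, and other proteases such as Pcsk7. Of its 12 genes tested in cells, 7 fell and 0 rose (5 and 0 with the line as a random block, beside 9.76% and 4.99% of all genes). Those that fell included Creb3l2 (-1.11 ± 0.10) and Srebf2 (-0.75 ± 0.10), which encode transcription factors released by the site-1 and site-2 proteases. The protease Pcsk7 (-0.52 ± 0.07) fell too. In tumours 0 of 15 tested genes of this list passed in edgeR and 0 in DESeq2, with 2 at an unadjusted p under 0.05 in edgeR, and without KO3 the count was 3.

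Of 19 PERK branch genes in cells, 1 fell (Dnajc3, an ER co-chaperone, -1.12 ± 0.09) and 1 rose (Ppp1r15b, an eIF2α phosphatase subunit, 0.38 ± 0.10) by the same test. Of all genes, 9.76% fell and 4.99% rose in cells. The Ppp1r15b call was lost without any KO1, KO2 or WT cell library, with the replicate block (edgeR adjusted p = 0.0631) and with the line as a random block (limma voom adjusted p = 0.128). In tumours the translation factor subunits Eif2b2 (-0.52) and Eif2b5 (-0.35) fell, beside 2.39% of all genes called lower. The calls were lost without any of 11 and of 6 libraries, in the length-scaled table, with the replicate block (edgeR adjusted p = 0.113 and 0.114) and with the line as a random block (limma voom adjusted p = 0.168 and 0.146). Of 17 genes of the TRAF2 and JNK branch, 1 rose in cells (the kinase Ripk1, 0.37 ± 0.09), beside 4.99% of all genes called higher. That call was lost without either WT cell library and with the line as a random block (limma voom adjusted p = 0.164). In tumours 0 of 19 passed in edgeR, with 3 at an unadjusted p under 0.05, and 1 rose in DESeq2. The median log2 fold changes in cells were -0.24, -0.24, -0.39 and -0.34 for the lists of splicing, IRE1 regulators, ATF6 trafficking and protease substrates, -0.0045 for PERK and 0.16 for JNK, beside 0.02 over all genes. The corresponding medians in tumours were -0.18, -0.19, -0.14, -0.26, -0.08 and 0.10.

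**Figure D4:**
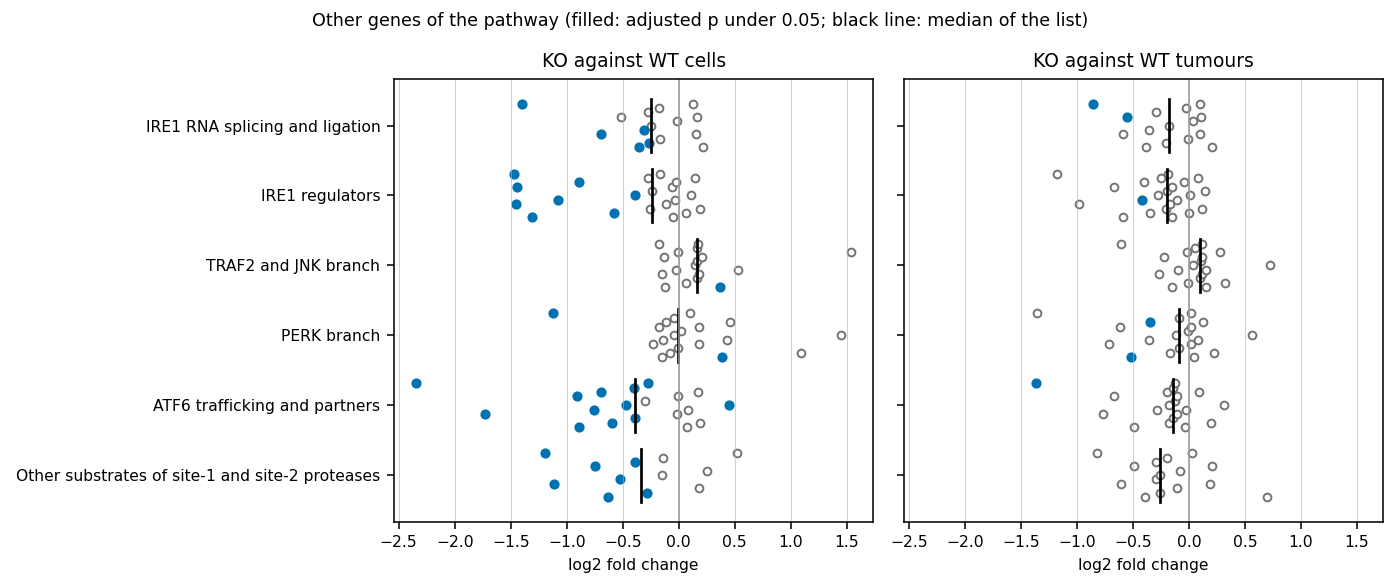
Log2 fold change of KO against WT for each tested gene of the 6 lists, in cells and in tumours; filled points have an edgeR adjusted p under 0.05 and the black line is the median of the list. In cells 11 of 19 genes of ATF6 trafficking were lower, and in tumours 1 of 19.

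Genes whose levels were most like a member's were sought among 9492 genes by Pearson's r of log2 CPM over the 21 libraries, after centring on the mean of cells or of tumours; the libraries share lines and groups, so r is a description. Xbp1 was most like Fam188a (r = 0.91), followed by Stt3b, Insig2, Tmem59 and Btg2 (0.87 to 0.89). Ern1 was most like Habp4 (0.86), then Aldh5a1, Spats2 and Ank (0.80 to 0.83). Eif2ak3 was most like Zfp687 (0.93), Psmd2 and Chmp4c (both 0.91). Atf6 was most like Nbas, Ccdc167 and Mia3 (0.84 to 0.86), and Atf6b most like Sec16a, Slc35c1 and Ppt2 (0.91 to 0.92). For Mbtps1 they were Abca2, Rdh11 and Clstn1 (0.90 to 0.91), for Mbtps2 Tceanc and Neo1 (0.85 to 0.89), for Rtcb Dffa, Nudcd2 and Urgcp (0.79 to 0.80) and for Traf2 Znhit2, Ccdc23 and Npepl1 (0.76 to 0.79).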

How the data were processed

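PolyA RNA libraries were prepared with a stranded kit, per the labels' protocols. The authors deposited estimated counts per gene as a plain and as a length-scaled table. In each library 7.96% to 10.2% of values were fractional. For the steps that made these estimated counts the submitters' processing notes name Trim Galore 0.6.7, STAR, Salmon 1.5.2 and GRCm38. Their settings and the annotation release were not given in the sources used here.

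The plain table was rounded to whole counts, filtered with filterByExpr, TMM-scaled and tested by the quasi-likelihood method of edgeR 4.0.16 (R 4.3.3), with Benjamini-Hochberg adjustment over all genes and a threshold of 0.05. The genotype was the only term for KO against WT within a setting. Single lines and their F test had the line as term, and tumours against cells and the interaction used all 21 libraries. Where 1 WT cell library was left, its spread was taken from the other groups. Relative transcript length was the log2 ratio of both tables, centred on genes with at least 100 counts in every library and tested by exact permutation. Log2 CPM used a prior count of 2. GENCODE M21 (45143 of 45706 gene IDs matched) gave positions, lengths and transcript sequences. RefSeq promoters (GRCm38.p6) ran from 250 bases before to 50 after the start.

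The members, lists and tests were chosen with earlier results of these data known. All 9 members were named. Of each list the 3 called genes with the smallest p were named, and Nfyb was added after its value was seen. For likeness the 3 most alike genes (5 for Ern1 and Xbp1) were named, among those averaging 2 or more in log2 CPM and without a predicted or clone symbol. Some genes are not reported here.

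The labels list replicates as separate samples without saying that cell libraries came from separate cultures, so the p-values rest on the spread among the libraries, which may be technical. Replicate pairs differed by more than sampling noise (lowest chi-square per degree of freedom 7.98 over 19 pairs). The settings varied were the scaling (RLE), the tool (DESeq2 1.42.0; limma 3.58.1 voom with each line as a random effect), the filter (none), the table (length-scaled), the terms (lines as groups; a replicate block; leukocyte or skeletal muscle covariates) and the libraries (each library or line omitted; libraries summed within lines; WT tumours 3 and 4 summed, since a number recurs in their descriptions). Omitting WT tumours 1 and 4, the interaction by line and the longest coding transcript were added after seeing the data. The tests were checked on simulated data, and matplotlib 3.10.9 drew the figures. Every column of both tables was used.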

Additional observations from a re-analysis of the deposited data

Results flagged for a closer look

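A difference of the KO effect between tumours and cells was called by edgeR for Mbtps1 over all lines (0.962% of genes) and, in a contrast by line added after the data were seen, for Mbtps1 in KO1 (3.76%) and KO2 (3.26%) and for Ern1 and Atf6b in KO3 (2.06%). The call over all lines was lost in 20 of 28 alternatives, and the calls by line in 4 to 6 of 18, among them the removal of either WT cell library in each case. For Mbtps1, the site-1 protease, the effect was higher in tumours than in cells by 0.61 on the log2 scale over all lines, by 0.62 in KO1 and by 0.75 in KO2. It fell in KO cells (356 ± 48.5 CPM in 6 KO libraries against 497 ± 7.09 in 2 WT libraries, SD) and lay at 330 ± 26.7 in 9 KO tumours against 311 ± 41.0 in 4 WT tumours. For Ern1 in KO3 the difference was -0.73: KO3 cells lay above WT cells and 2 of 3 KO3 tumours below all WT tumours. For Atf6b in KO3 the difference was 0.86: KO3 cells lay below WT cells, and KO3 tumours at 108 ± 10.7 CPM against 96.6 ± 14.5 in WT tumours (SD). Dixon's test was applied to each member in the 4 WT tumours and in the KO cells and the KO tumours with lines pooled, 27 sets in all, and marked 0 libraries. The groups of 2 or 3 libraries were not tested on their own.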

How the results depend on the processing

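Of the counts of members called, 4 in KO against WT cells became 0 with libraries summed per line, 3 with the line as a random block or without KO1 or KO2 (Mbtps1 lost), 5 with DESeq2 or without KO3 (Xbp1 gained) and 6 with lines as groups (Xbp1 and Atf6 gained), and 1 in KO against WT tumours became 2 with DESeq2, lines as groups, a skeletal muscle covariate or without KO3, and 0 with libraries summed per line. The interaction count of 1 became 0 with RLE scaling, no filter, WT tumours 3 and 4 summed, or WT tumours 1 and 4 left out. In KO2 tumours 2 calls became 1 with WT tumours 3 and 4 summed, with no filter and with the replicate block, and in KO3 tumours 1 became 0 with the replicate block. Lines in tumours gave 4 calls with DESeq2 and 3 without WT tumours 1 and 4, against 1. Calls of relative transcript length were 0 when centred on genes with 1000 counts, against 1. Same-numbered libraries did not deviate together in most pairs of groups, so the numbers were not taken as pairs. In cells 6 pairs of groups had correlations from -0.13 to 0.29, of which 2 were over 0.1. In tumours 18 had correlations from -0.61 to 0.22, of which 5 were over 0.1. With 2 libraries a group in cells, both libraries give the same correlation, so the check is weak there.

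Leaving out single libraries gave 2 to 5 calls for KO against WT cells, 1 to 2 for tumours, 0 to 1 for the interaction, 4 to 5 for KO tumours against KO cells and 4 to 6 for WT tumours against WT cells. By line it gave 5 to 6 in KO1 and in KO2 cells, 4 to 5 in KO3 cells, 0 to 4 in KO1 tumours, 0 to 2 in KO2 tumours and 0 to 1 in KO3 tumours. It gave 2 to 4 for lines in cells, 0 to 3 for lines in tumours and 0 to 1 for relative length.

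The 6 calls over the pathway lists in tumours became 0 with WT tumours 1 and 4 left out, WT tumours 3 and 4 summed, libraries summed per line, the replicate block, the line as a random block or without KO2. They stayed 6 with RLE scaling and became 2 with no filter or without KO1, 3 in the length-scaled table, 10 with the leukocyte and 14 with the muscle covariate, 16 with DESeq2, 21 without KO3 and 23 with lines as groups. The 35 in cells became 2 with libraries summed per line, 22 without KO1 or KO2, 23 with the line as a random block, 55 without KO3 and 60 with lines as groups, and 27 to 38 otherwise. A gene in more than 1 list counts once for each. Among the log2 fold changes given for the members, the direction turned only where the member was not called. In KO against WT tumours Ern1 was at -0.097 without WT tumours 1 and 4, -0.053 in the length-scaled table, -0.0095 with the replicate block, -0.014 with the muscle covariate, -0.065 without KO1 and -0.025 without KO2. Mbtps2 was at 0.0092 without WT tumours 1 and 4, 0.037 with the replicate block and 0.013 without KO3. Rtcb was at 0.043 with the block and 0.00064 with libraries summed per line, and Traf2 at -0.0036 with the block and -0.029 without KO1. In KO tumours against KO cells Atf6 was at 0.033 with DESeq2, 0.034 with RLE scaling and with the replicate block, 0.036 without WT tumours 1 and 4 and 0.037 in the length-scaled table, and Xbp1 at -0.022 with no filter. Without WT tumours 1 and 4, Mbtps1 in KO1 tumours was at -0.022 and Ern1 in KO2 tumours at -0.0033. Leaving out single libraries in KO against WT tumours moved Ern1 from -0.029 to 0.089, Mbtps1 from -0.0011 to 0.145, Mbtps2 from -0.13 to 0.027, Rtcb from -0.126 to 0.031 and Traf2 from -0.056 to 0.060. It moved Atf6 from -0.066 to 0.066 and Xbp1 from -0.0056 to 0.054 in KO tumours against KO cells, Atf6 from -0.0060 to 0.059 in KO1 cells and Mbtps1 from -0.093 to 0.083 in KO1 tumours. The cause of these changes was not tested. The lowest level of any member was 10.5 CPM, and WT was 1 line with 2 cell libraries.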

Other observations

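The RefSeq promoters of 7 members (250 bases before to 50 after the start, GRCm38.p6) were searched on both strands for the ER stress response element in its long form, the unfolded protein response element and the cAMP response element. Rtcb and Atf6 had no promoter entry. Of the 7, 0 held any of these motifs in this window, and of 32851 promoters 0.119%, 0.676% and 1.79% held them. With motifs this rare, a count of 0 among 7 does not set the members apart from other genes.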
